A study of Mus musculus with 310 samples.

Results

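The class of infundibular and duct differentiated cells, called the infundibular and duct class below, was a set of 62 of the 310 sorted keratinocytes. They were selected on measured values, by 4 marker genes of the upper hair follicle: Krt79, Krt17, Cst6 and Defb6. Each cell was scaled to 10000 reads and log-transformed, each gene was turned into a z-score over all cells, and the cell joined whichever of 6 sets of 4 genes had the highest mean z. The other sets marked bulge, sebaceous, interfollicular differentiated, basal and junctional zone cells, and took 57, 33, 48, 66 and 44 cells. The levels of these 24 genes in the class are therefore given as a description. Rule genes stayed in the fits between groups, but their calls are not read as results. Levels of the class against the other cells are likewise a description. Only the difference between groups was compared between the class and the other cells by a test.

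The infundibulum is the funnel through which a hair follicle opens onto the skin surface, and the sebaceous duct carries sebum into it. Both are lined by keratinocytes that stratify, cornify and are shed, much as in the epidermis between follicles, but with keratins and secreted proteins of their own. Krt79 and Krt17 are keratins of the follicle opening and outer root sheath, Cst6 is a cysteine protease inhibitor of cornifying layers, and Defb6 is a beta-defensin, a secreted antimicrobial peptide.

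Cells came from tail epidermis of mice with the alleles Lrig1-EGFP-ires-CreERT2 and Rosa26-fl/STOP/fl-tdTomato on a mixed CBA C57BL/6 background. In both groups, 1 topical dose of hydroxytamoxifen activated a Cre recombinase driven by Lrig1, a stem cell gene of the junctional zone, and tdTomato-positive cells, the Lrig1-expressing cells and their progeny, were sorted singly into 96-well plates. The groups were 38w (replicates RepI and RepL) and 38wUW (RepM and RepN). Both carry a time of 38 weeks, and the labels do not spell out UW or say which group had been wounded, so differences are given as 38w against 38wUW. The study asked whether the effect of an earlier wound lasts in the descendants of these stem cells.

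Class cells held 15716 to 480271 reads (median 60932) and a median of 3682 genes. RepI lay on plates C114 (11 class cells) and C118 (1 class cell), RepL on C119, RepM on C128 and RepN on C129, so for RepL, RepM and RepN plate and replicate cannot be told apart. Plate C114 stood apart: in its class cells the median share of reads from ribosomal protein genes was 14.8%, against 2.41% to 5.58% on the other plates, and mitochondrial genes 1.69% against 9.70% to 22.2%. The class also held 5 of the 15 samples whose names carry an unexplained suffix, including both samples marked MBULK, 1 in RepL and 1 in RepN. The study made mini-bulk libraries from pooled cells, so these 2 may not be single cells. On C114, 11 wells were named by 2 samples each. In 2 of these wells both samples were in the class, and in 4 only 1 was. Log-transformed levels of the 2 samples of a well correlated at a median of 0.635, against 0.626 for other pairs of C114 samples.

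The start regions of the class genes are shown because the levels of these genes carry the description below. RefSeq promoters (GRCm38.p6, 250 bases before to 50 after the start) were at hand for 2 of the 4 markers, Krt79 (chr15:101940275-101940574, minus strand) and Defb6 (chr8:19225228-19225527, plus strand), and for Sprr1a (chr3:92485832-92486131, minus strand), the gene outside the rule with the highest ratio of class to other cells. Capitals mark matches on either strand to the core element of TBP (TATAAA), the GATA motif (AGATAA), the AP-1 motif (TGAGTCA) and the grainyhead motif (AACCNGTT).
Krt79: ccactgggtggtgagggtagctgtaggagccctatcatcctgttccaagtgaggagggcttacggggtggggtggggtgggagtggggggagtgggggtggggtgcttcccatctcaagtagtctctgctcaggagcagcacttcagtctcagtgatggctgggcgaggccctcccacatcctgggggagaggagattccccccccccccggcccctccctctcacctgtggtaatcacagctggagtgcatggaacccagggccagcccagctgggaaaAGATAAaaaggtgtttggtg
Defb6: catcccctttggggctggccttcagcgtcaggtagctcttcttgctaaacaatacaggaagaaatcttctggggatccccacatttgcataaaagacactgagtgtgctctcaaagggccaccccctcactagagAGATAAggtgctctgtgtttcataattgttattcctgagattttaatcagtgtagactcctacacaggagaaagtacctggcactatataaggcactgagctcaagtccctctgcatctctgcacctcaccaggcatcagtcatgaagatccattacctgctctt
Sprr1a: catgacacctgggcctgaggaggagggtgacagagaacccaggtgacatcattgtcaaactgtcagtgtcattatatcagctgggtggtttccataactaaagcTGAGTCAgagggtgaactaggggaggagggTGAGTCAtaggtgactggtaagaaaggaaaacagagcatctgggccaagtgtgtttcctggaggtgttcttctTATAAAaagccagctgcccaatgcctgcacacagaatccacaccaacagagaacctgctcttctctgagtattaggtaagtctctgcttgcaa
Krt79 and Defb6 each held 1 AGATAA, a motif found in 11.2% of the 32851 promoters of the same length. Sprr1a held 2 copies of TGAGTCA, found in 5.20% of promoters, and 1 TATAAA, found in 13.6%. None of the 3 windows held AACCNGTT, found in 2.09%. The window of Klk10, next to Sprr1a in the ratio of class to other cells, was also searched and held none of these motifs. It is not printed. A match of letters is a description, not a binding site.

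All 4 markers had a read in 57 of the 62 class cells and in 20 of the 248 others. Per replicate, counts were summed over class cells and given per 1000000 reads of the sum (CPM). Krt79 stood at 22448 CPM in RepI and 5952 in RepL of 38w, and at 12965 in RepM and 8885 in RepN of 38wUW, and Krt17 at 22128, 3998, 7640 and 2485 CPM. Both keratins were highest in RepI. In the same order, Cst6 stood at 248224, 27178, 49926 and 19309 CPM, and Defb6 at 36230, 5126, 11229 and 11039 CPM. The Cst6 level of RepI came from plate C114, where this 1 gene took a median of 22.4% and at most 57.8% of the reads of a class cell. The median was 0.483% in the single class cell of C118, 1.49% on C119, 3.76% on C128 and 1.86% on C129. Since CPM values are shares of a total, the CPM of every other gene in RepI is lowered by this. Summed over the other cells of a replicate, Cst6 ranged from 26.8 to 585 CPM and Krt79 from 24.5 to 343 CPM.

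**Figure D1:**
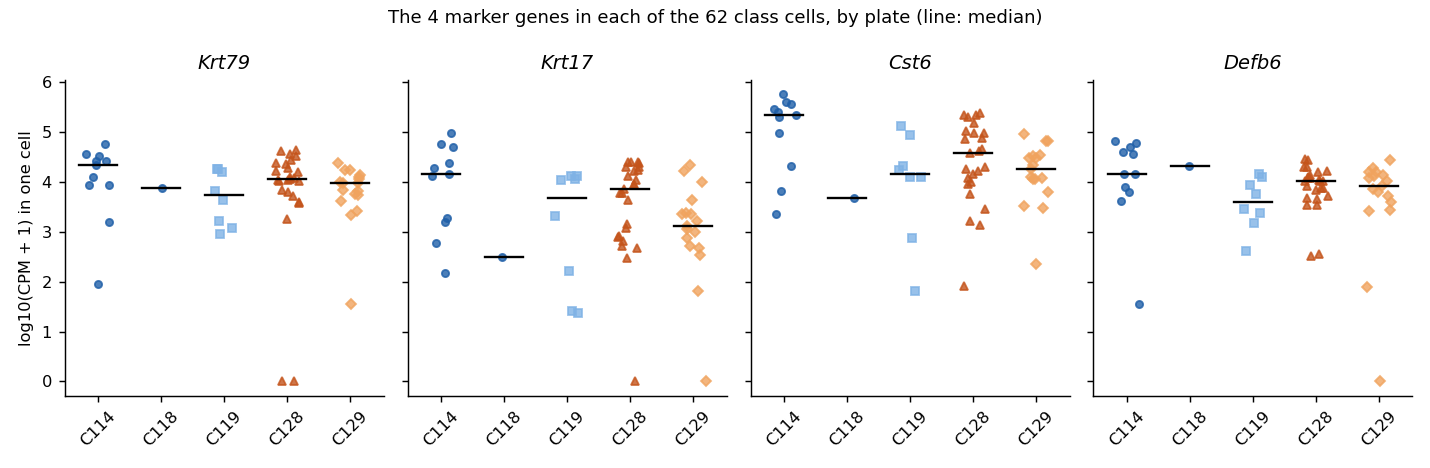
Level of the 4 marker genes in single class cells, as log10(CPM + 1), by plate. Each point is 1 of the 62 class cells and the line is the plate's median. Cst6 on plate C114 (median 223855 CPM) lies above the medians of all other plates, while single cells on C128 and C129 have no read of 1 marker.

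The cells were not equally far inside the class. Their lead over the next set had a median of 1.37 z, and 5 cells led by less than 0.25. The 3 cells just inside led by 0.0892, 0.0929 and 0.124, and the 3 just outside missed by 0.0262, 0.0302 and 0.0489. The next best set was interfollicular differentiated for 35 class cells, sebaceous for 15, junctional zone for 7, bulge for 3 and basal for 2.

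The class made up a smaller share of 38w than of 38wUW cells, but the design cannot test this below p = 0.33. The class took 12 of 70 cells of RepI (17.1%, 95% Wilson interval 10.1 to 27.6), 8 of 75 of RepL (10.7%, 5.50 to 19.7), 25 of 82 of RepM (30.5%, 21.6 to 41.1) and 17 of 83 of RepN (20.5%, 13.2 to 30.4). The intervals cover counting error only. The 2 replicates of 38w lay below both of 38wUW, with means of 13.9% ± 4.58 and 25.5% ± 7.08 (SD, n = 2 each). The difference of -11.6 percentage points had an exact two-sided permutation p of 0.33, the smallest that 2 replicates against 2 allow. The shares of the 6 sets add up to the whole in each replicate, so they are not independent of each other. Lower shares in 38w were not particular to the class: the bulge, junctional zone and sebaceous sets differed by -13.9, -13.7 and -5.80 points, and the basal and interfollicular differentiated sets by 28.7 and 16.2 points, each at the same p of 0.33. Without RepM the difference was -6.58 points, and with plate C114 left out it was -18.4 points. The batch tags of the labels split RepI, with C114 in Replicate2 and C118, like C119, in Replicate1. Within these batches, C114 held 20.8% against 30.5% on C128, and C118 (5.88%) and C119 (10.7%) stood against 20.5% on C129. By plate, C114 did not lie below C129, so the separation of the groups rests on summing RepI over both of its plates. Under the alternative batch tag, C114 (20.8%) was paired with C129 (20.5%) and lay at the same level, while C118 and C119 stood against 30.5% on C128.

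**Figure D2:**
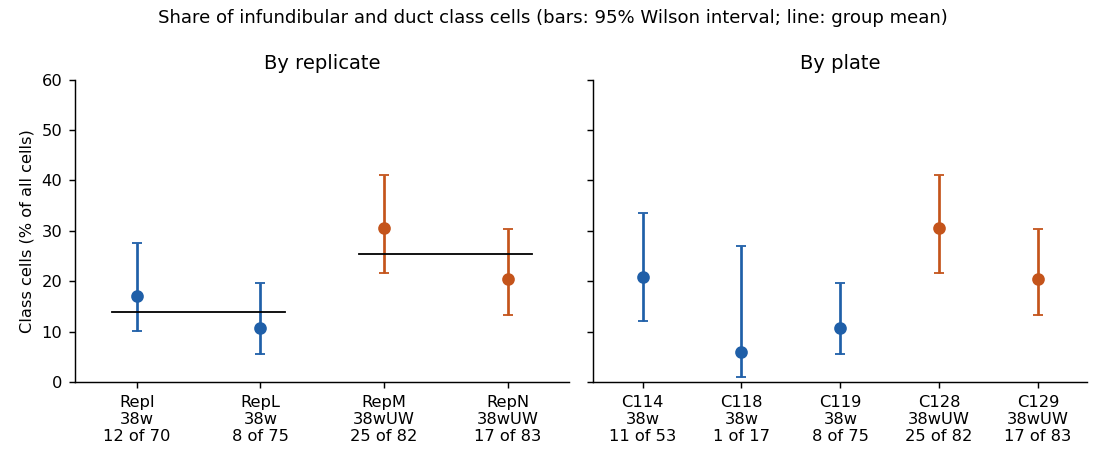
Share of all cells that fell in the class, in percent, by replicate (left) and by plate (right), with 95% Wilson intervals as bars and the group means as lines. Shares are 17.1% and 10.7% in 38w and 30.5% and 20.5% in 38wUW, and plate C114 (20.8%) reaches the level of C129.

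Outside the 24 rule genes, the highest class ratios included genes of cornification and shedding and of lipid and xenobiotic handling. Among 2483 genes with at least 50 CPM in 3 replicates, in the class or in the other cells, 396 (15.9%) were higher in the class in 4 of 4 replicates and 592 (23.8%) were lower. Sprr1a, a precursor of the cornified envelope, stood in the order RepI, RepL, RepM and RepN at 19953, 446, 3547 and 4459 CPM, against 2.66 to 39.4 CPM in the other cells. It had a read in 53 class cells and 29 others, and its median log2 ratio, with 10 CPM added to both sides, was 7.02. The class was above the other cells in every replicate, with RepL the lowest by far.

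Also high were kallikrein-related peptidases, a family whose member Klk7 cuts the links between dead surface cells. Klk10 stood at 4093, 89.3, 1627 and 439 CPM in RepI, RepL, RepM and RepN against at most 4.52 CPM in other cells, though only 19 class cells had a read. Klk7 stood at 1078, 482, 1939 and 1446 CPM and had a read in 40 class cells. Spink5, an inhibitor of epidermal kallikreins, was read in 60 class cells at 726, 733, 3011 and 3657 CPM, and Cdsn, corneodesmosin, which holds surface cells together, in 23 at 436, 9.30, 496 and 106 CPM. Asprv1, the protease that trims filaggrin, was read in 19 class cells and varied from 1.86 CPM in RepL to 1169 in RepI. Thus inhibitor reads were found in nearly all class cells, and reads of the kallikreins and of Cdsn in fewer of them.

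A further group of leading genes acts on lipids, retinoids and foreign compounds. Cyp2b19, a cytochrome P450 of keratinocytes, stood at 869, 270, 1144 and 1468 CPM with reads in 47 class cells and 24 others. Sdr16c6, of the short-chain dehydrogenases, stood at 218, 692, 746 and 1607 CPM, and Ptgr1, a prostaglandin reductase, at 1199, 551, 781 and 1284 CPM. Ptgr1 reads were found in 61 of 62 class cells. The remaining leaders were Teddm3, Slc46a2, Slc6a14, an amino acid transporter, Ly6g6c, Psapl1, Mal2, Bace2, Calhm5, Atp6v1c2, a subunit of the vacuolar proton pump, Gsdma, a pore-forming gasdermin, and Plet1, a surface protein of the upper follicle, with median log2 ratios of 3.49 to 5.30. At the other end stood Slc6a6, the taurine transporter, with a median log2 ratio of -4.56, Ptn (-4.30), Col17a1, the hemidesmosomal collagen (-4.16), and Mt4, a metallothionein (-3.82).

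**Figure D3:**
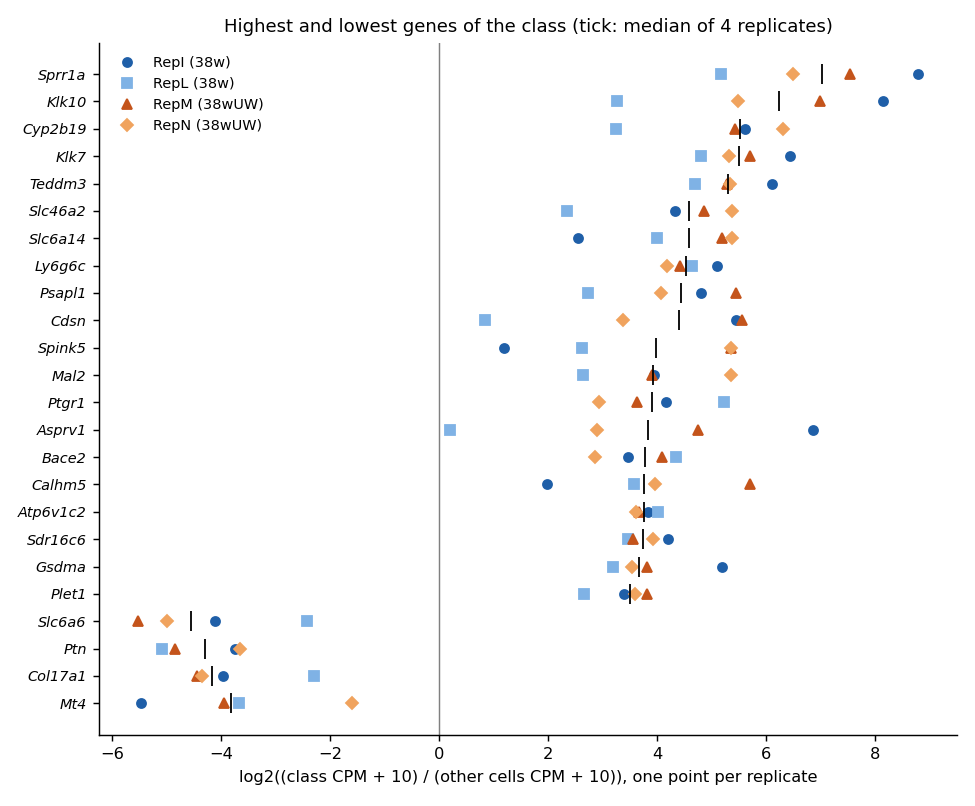
Log2 ratio of class to other cells, with 10 CPM added to each, for the 20 highest and 4 of the 5 lowest genes outside the rule. Each replicate has 1 point and the tick is the median. All points of a gene lie on the same side of 0, and RepL is lowest for Sprr1a and Klk10.

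By gene list, counting members over 50 CPM, the class was higher in 4 of 4 replicates for 10 of 13 members of the cornified envelope list, 7 of 13 desquamation proteases and inhibitors, 14 of 15 genes of lipid and xenobiotic handling, 11 of 17 upper follicle and duct genes, 4 of 6 Skint genes and 4 of 9 desmosome genes. Median log2 ratios were 2.66, 1.37, 2.75, 1.92, 2.86 and 0.80, against -0.18 over all 2483 genes. Krtdap, Sbsn, Cstb, an inhibitor of cathepsins, Crabp2, which carries retinoic acid, and the desmosomal Dsp and Dsg1a were members with high class levels. Of the 14 genes of the basal anchoring list, the 8 over 50 CPM were all lower in 4 of 4 replicates (median -2.26). Among them was Trp63, the master factor of basal keratinocytes and not itself an anchoring protein, at 13.6 to 65.1 CPM in the class and 190 to 619 CPM elsewhere. The Notch list was mixed, with 2 higher (Notch2 and Nrarp) and 3 lower (Jag1, Notch1 and Hes1) of 6. None of 12 glycolysis and hypoxia genes was higher and 4 (33.3%) were lower (Ldha, Hif1a, Fam162a and Higd1a), beside 15.9% higher and 23.8% lower over all 2483 genes. Of 10 AP-1 and early response genes 1 was higher (Zfp36), a share below the 15.9% over all genes, and of 2 stress keratin genes 1 was (Krt6a). The antimicrobial list had 1 gene over 50 CPM, Defb1, which was higher in 4 of 4. Of 51 members over 50 CPM of the marker list of the study's Transition Cluster 7, 38 were lower in 4 of 4 and 1 was higher. Postn, the study's infundibulum marker and here a bulge gene of the rule, had a read in 5 class cells. Postn and the basal genes Krt14, Krt5, Ly6a and Tgfbi stood in competing sets of the rule, so cells rich in them were less likely to be placed here. Whether the class holds infundibular cells that the study calls primed, which it places in the Transition Cluster, was therefore not tested. The class is not to be equated with those cells. The counts by list come from the contrast that chose the cells, so they describe the class and do not test it.

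Of the differentiation factors, 9 of 15 were higher in the class in 4 of 4 replicates and 3 were lower (Gata3, Rora and Maf). Gata6, a factor of the sebaceous duct, had a read in 52 of 62 class cells and 50 of 248 others, at 70.3, 70.7, 230 and 87.5 CPM in RepI, RepL, RepM and RepN. Ehf, an ETS factor of epithelia, stood at 328, 188, 472 and 633 CPM against 3.30 to 72.8 elsewhere, and Grhl1, a grainyhead factor of desmosomal genes, at 53.4, 329, 333 and 478 CPM. In RepI, Grhl1 was little above the 49.2 CPM of the other cells. Foxc1 was read in 41 class cells with a median log2 ratio of 2.39.

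Reads of the usual keratin partners met in a minority of the pooled class cells, but Krt5 was read in most Krt14 cells of RepI. In the epidermis between follicles, basal cells make Krt5 with Krt14 and suprabasal cells Krt1 with Krt10, each a type II with a type I keratin. Krt10 was read in 56 class cells, but only 10 of these (17.9%) had a read of Krt1, whereas 33 of 48 interfollicular differentiated cells with Krt10 did (68.8%). The share was 47.4% in basal and 30% in sebaceous cells, and 5.88% in both bulge and junctional zone cells. A low share was thus not particular to the class. Krt77, a type II keratin outside the rule, was read in 26 of the 56 (46.4%) and in 0 of the 48 interfollicular differentiated cells, which allows a share of cells with a read of up to 6.25%. Such limits cover counting error only and do not bound the share of cells that express a gene. Median depth was 60932 reads in the class and 59620 in the interfollicular differentiated cells. Across replicates, 50%, 33.3%, 43.5% and 53.3% of Krt10 cells of RepI, RepL, RepM and RepN held Krt77, and 16.7%, 16.7%, 4.35% and 40% held Krt1. Krt14 was read in 59 class cells, of which 18 (30.5%) had a read of Krt5, with a range from 8.70% in RepM to 66.7% in RepI. In the other sets this share ran from 70.6% (interfollicular differentiated) to 100% (bulge and basal). Krt14 reads were in 220 of the 248 other cells too, so detection of Krt14 does not mark a class. Krt17 and Krt79 were read together in 58 cells. Krt1, Krt10, Krt5, Krt14, Krt17 and Krt79 are rule genes, so a cell rich in Krt1 or Krt5 was less likely to be placed here. Krt23 was read in 14 class cells and in 0 of 248 others, which allows a share of cells with a read of up to 1.21%.

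Class cells were then set beside the marker lists of the 3 study clusters that hold Krt79, which the study made on cells of young mice. With the rule genes left out, 18 class cells were closest to the list led by Skint10 and Skint9, 20 to that with Cst6, Sprr1a and Klk10, and 24 to that with Spink5, Cyp1b1 and Apoe. The lists share 25 to 35 genes in pairs, and 56 of 77, 74 of 88 and 47 of 80 of their members over 50 CPM were higher in the class than in other cells in 4 of 4 replicates. Cells at the Skint list had a read of Skint10 and of Skint9 in 15 of 18 cells each, against 4 of 20 and 3 of 20 at the Klk10 list and 1 of 24 and 4 of 24 at the Apoe list. Klk10 was read in 16 of 20 cells at its own list and Cdsn in 18 of 20, with 2 and 3 of 18 at the Skint list and 1 and 2 of 24 at the Apoe list. Apoe was read in 24 of 24 cells at its list and in 14 cells at each other list, and Cyp1b1 in 18 of 24. The genes used to sort the cells differ by construction. Of the rule genes, which the sorting did not use, Cst6 had a median of 143372 CPM at the Klk10 list, 20984 at the Skint list and 10739 at the Apoe list. Plate C114, where Cst6 was highest, held 5 of the 20 cells at the Klk10 list and 3 at each of the others, and without it the medians were 77374, 20857 and 9980 CPM. On C129 they were 27035, 12305 and 11499 CPM in 4, 6 and 7 cells. Krt17 had medians over all class cells of 9928, 13333 and 653 CPM. Krt79 medians were 10338, 18214 and 6743 CPM.

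**Figure D4:**
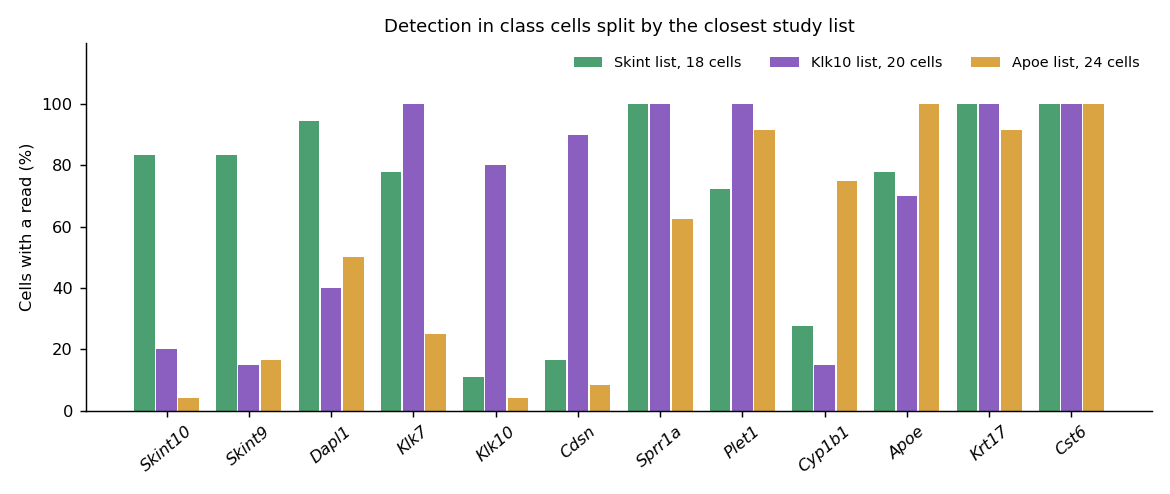
Percent of class cells with a read of each gene, for cells closest to the Skint list (18 cells), the Klk10 list (20 cells) and the Apoe list (24 cells). Skint10 and Skint9 are mostly found in the first set, Klk10 and Cdsn in the second, and Apoe in all 24 cells of the third.

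Every class cell was placed at 1 of the 3 lists, whatever its level. Over the 3 lists, the median of the cells' mean z ran from -0.31 to -0.20 in RepI and from -0.30 to -0.19 in RepL. It ran from 0.08 to 0.21 in RepM and from 0.08 to 0.24 in RepN, so 38w was lower at all 3 lists. These z-scores carry no TMM scaling. In summed CPM, 46 of 94, 44 of 95 and 40 of 97 tested list members had both 38w replicates below both of 38wUW. Over all genes outside the rule, 30.3% had both below and 6.68% both above. Class cells of RepI and RepL also held fewer genes, with medians of 3517.5 and 3110.5 against 3745 in RepM and 4238 in RepN. The share of class cells closest to the Klk10 list was 5 of 12 in RepI (41.7%), 3 of 8 in RepL (37.5%), 8 of 25 in RepM (32.0%) and 4 of 17 in RepN (23.5%). The means were 39.6% ± 2.95 in 38w and 27.8% ± 5.99 in 38wUW (SD, n = 2 each), a difference of 11.8 points (exact permutation p = 0.33). With plate C114 left out the difference turned to -9.01 points (p = 1), since the 1 class cell of C118 then stands for RepI, and with the first 50 genes of each list it was 0.63 points.

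Between groups within the class, edgeR called 0 of 7557 genes (0%, 23 of them rule genes) at an adjusted p of 0.05, with 418 at an unadjusted p under 0.05. DESeq2 called 21 of 6238 genes that have an adjusted p (0.337%), 9 higher and 12 lower in 38w. Of these 1 higher gene, Krt2, is a rule gene, which leaves 20 calls outside the rule. Without RepI edgeR called 249 genes and without RepL 528, in fits where the lone 38w replicate is assumed to vary like the 38wUW pair, and 27 genes were called in both with the same sign. Without RepM or RepN it called 0, with 110 and 90 at an unadjusted p under 0.05. On the CPM scale, 503 of 7534 genes outside the rule (6.68%) had both 38w replicates above both of 38wUW and 2280 (30.3%) had both below, while the median log2 fold change after TMM scaling was 0.18.

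Spink5 and 3 of the 8 tested Skint genes had lower values in both 38w replicates than in both of 38wUW, none past the edgeR threshold. Skint genes encode immunoglobulin-like proteins of keratinocytes, and Skint1 selects a gamma-delta T cell of the skin. Skint9 stood at 5.86 CPM in RepI (5 of 12 class cells with a read), 0 in RepL (0 of 8), 547 in RepM (12 of 25) and 214 in RepN (5 of 17). Its adjusted p was 0.655 by edgeR and 0.0159 by DESeq2, with a range of 0.00118 to 1 over the alternatives. Skint10 stood at 67.1, 0, 202 and 1057 CPM, with 94.2% of the RepI reads and 69.5% of the RepN reads in 1 cell each. Its adjusted p ranged from 0.000202 to 1 over the alternatives, and without RepN its log2 fold change was -1.98. Without RepI, when the remaining 38w replicate has no read of either gene, the fitted values were -12.1 for Skint9 and -12.9 for Skint10. Skint3 stood at 71.0, 296, 1051 and 713 CPM. In interfollicular differentiated cells Skint10 stood at 1.35, 35.3, 124 and 535 CPM, also lower in both 38w replicates, while Skint9 and Skint3 overlapped there. Within the class the groups did not overlap in these 3 genes, and 3 of 8 is near the 30.3% of all genes in this direction. They overlapped in the other 5, among them Skint1 and Skint8, whose log2 fold changes were 0.08 and 0.40. Of the 8 Skint genes 0 were called by edgeR, 2 had an unadjusted p under 0.05 and the median log2 fold change was -1.33. Skint genes resemble each other in sequence, as do Sprr, Dsg1 and Krt6 genes, so estimated counts could be split among family members. Spink5 stood at 726 and 733 CPM in 38w and 3011 and 3657 CPM in 38wUW, a log2 fold change of -1.65 (edgeR adjusted p = 0.853, range over the alternatives 0.140 to 1).

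Of the marker panel, 27 genes outside the rule were tested and 0 were called by edgeR, with a median log2 fold change of -0.53. Both 38w replicates were below both 38wUW replicates for 14 of the 27 and above for 0, beside 30.3% and 6.68% of all genes. Defb1, a beta-defensin, stood at 765, 707, 998 and 1212 CPM in RepI, RepL, RepM and RepN, but its log2 fold change after TMM scaling was -0.04 (edgeR adjusted p = 0.996). Epcam, an adhesion protein read in all 62 class cells, stood at 580, 551, 702 and 1064 CPM with a log2 fold change of -0.10 (edgeR adjusted p = 0.989). Their order on the CPM scale was thus not kept as a difference after scaling. By edgeR, 0 members were called in the lists of cornified envelope (22 tested), desquamation (20), lipid and xenobiotic handling (18), upper follicle and duct (20), desmosome (11), basal anchoring (8), Notch (9), differentiation factors (19), AP-1 and early response (11), antimicrobial (6), stress keratins (3) and glycolysis and hypoxia (17). The median log2 fold change was 1.46 for basal anchoring and -0.46 for desmosome, and between -1.28 (stress keratins) and 0.60 (AP-1) for the others. The basal gene Col17a1 stood at 36.5 and 125 CPM in 38w and 8.72 and 12.8 CPM in 38wUW (edgeR unadjusted p = 0.0357), with 95.5% of the RepL reads in its MBULK sample.

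**Figure D5:**
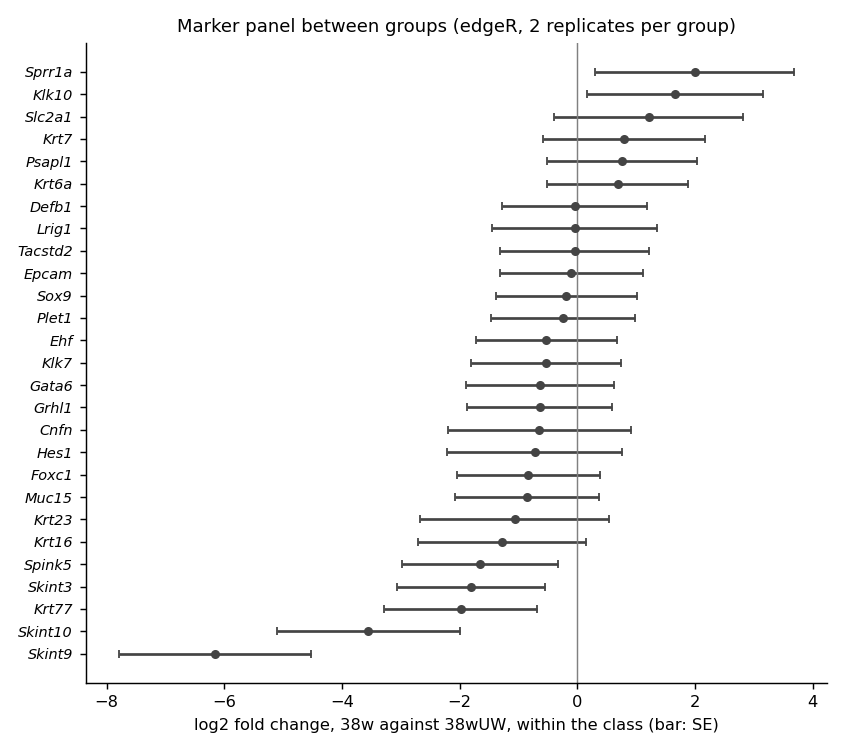
Log2 fold change of 38w against 38wUW within the class for the 27 tested panel genes outside the rule, from edgeR, with the SE as bars (2 replicates per group). Skint9 and Skint10 lie furthest from 0, at -6.16 and -3.55 with all replicates in the fit, and no gene passed the adjusted threshold.

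The genes furthest apart between groups, without overlap and at an unadjusted p under 0.05, often rested on single samples. The 5 highest in 38w were Gfer, Mt4, Gm10282, Dpagt1 and Manea, and the 5 lowest Rnf115, Rdh1, Sirt1, Scai and Zfp780b, all with an adjusted p of 0.655 by edgeR. Mt4 stood at 111 (7 of 12 cells) and 22.3 CPM in 38w and at 0 and 0.88 CPM in 38wUW. In the cells outside the class it stood at 5376 and 404 CPM in 38w and 145 and 23.0 CPM in 38wUW. The direction was thus not particular to the class. In RepL, the MBULK sample held all reads of Gfer (164 CPM) and Mt4 and 98.2% of those of Gm10282 (203 CPM), and 1 other class cell all reads of Manea (160 CPM). With the MBULK samples left out, Gfer, Mt4 and Gm10282 were no longer among the genes tested within the class. Rdh1, a retinol dehydrogenase, stood at 0 and 1.86 CPM in 38w and at 69.96 (6 of 25 cells) and 177 CPM (9 of 17 cells) in 38wUW, and Sirt1, a deacetylase, at 0.65, 0, 159 and 60.3 CPM. Scai and Zfp780b had no read in the class cells of 38w, and 97.8% of the Zfp780b reads of RepN lay in 1 cell.

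Whether the group difference of the class differed from that of the other cells was tested in 1 model with the replicate as a block. The other cells were a different mix in each group. The basal set made up 36.6% of all cells in 38w against 7.88% in 38wUW, and the bulge set 10.9% against 24.8%. The part of this mix in the differences was not tested. With interfollicular differentiated cells alone as the other cells, edgeR called 0 of 8766 genes. By edgeR 0 of 11101 genes (0%) were called, with 497 at an unadjusted p under 0.05. DESeq2 called 34 of the 11101 genes fitted, and edgeR without a filter on low counts called 28 of 14067. The DESeq2 calls included Defb6, a rule gene, whose call is not read as a result because it helped to choose the cells. Krt16, a keratin of activated keratinocytes, stood at 182, 1.93, 610 and 94.8 CPM over RepI, RepL, RepM and RepN in the class, and at 72.9, 52.0, 5.76 and 0.89 CPM in the other cells. The class was thus above the other cells in RepI and both 38wUW replicates and below them in RepL. The difference was -7.53 on the log2 scale (SE 1.66, edgeR adjusted p = 0.811, range over the alternatives 3.8e-06 to 0.811). Against interfollicular differentiated cells alone it was -7.88. In RepI, 95.8% of the Krt16 reads lay in 1 class cell. The other genes chosen by the same rule were Klhl22, Dclk1, Gm10282, Ptcd2 and Il1rn, an inhibitor of interleukin-1 signalling, with higher ratios in 38w, and Dcun1d2, Bnip3, Ttll7 and Zfp780b with lower ones. In RepL, 1 class cell held all Il1rn reads (311 CPM), while all Klhl22 reads (266 CPM) lay in the MBULK sample. Without the MBULK samples the difference fell from 11.27 to 1.53 on the log2 scale for Klhl22 and from 5.89 to 3.28 for Gm10282.

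Immune markers were near 0 in the class, fibroblast and melanocyte markers were low, and 1 endothelial marker was read in every class cell. Of 3 immune markers in the table, Lyz2 had no read, and Ptprc and H2-Aa had a read in 1 cell each, with a summed level of at most 0.65 CPM in any replicate. Summed melanocyte markers ranged from 14.5 to 64.1 CPM, mostly Mitf, and 5 fibroblast markers from 4.65 to 14.4 CPM. Pecam1, listed as an endothelial marker, had a read in all 62 class cells at 3905 CPM, while Kdr, the other endothelial marker, had a read in 2 cells and Acta1, of muscle, in 5. The endothelial and muscle list summed to 1124, 6359, 7391 and 2569 CPM in the 4 replicates, and to 4149 CPM over the cells outside the class, and its part in the group results was not tested.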

How the data were processed

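Single tdTomato-positive cells were profiled by a modified Smart-seq2 protocol without molecular identifiers. The authors quantified reads with Salmon 0.13.1 (per the labels, with builds mm10 and GRCm38), and the deposited table holds estimated counts for 14068 genes and 310 cells, unscaled, of which 3.60% were not whole. The stated cell filters were 1000 genes and 50% mitochondrial reads. Doublets were not called, since each well was to hold 1 cell.

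The members, lists and tests were chosen with earlier results of these data known. Counts were summed per replicate over class cells (4 sums) and, for the interaction, over the other cells (8 sums), rounded, and fitted by edgeR 4.0.16 under R 4.3.3 (filterByExpr, TMM, quasi-likelihood F-test, Benjamini-Hochberg over all genes tested, threshold 0.05), with DESeq2 1.42.0 as an alternative. The code was tested on simulated data. The study reports independent experiments based on biological replicates, but the labels do not tie the replicate tags to separate animals. The p-values thus measure the spread between these samples. Shares were compared by exact permutation. Named genes were the rule genes, the 20 highest and 5 lowest class ratios of the same sign in 4 replicates, the panel, up to 4 members per list, and, with none called, the 5 highest and 5 lowest fold changes at an average log2 CPM of at least 5, an unadjusted p under 0.05 and no overlap. Of the 5 lowest class ratios, 1 is not reported here. Krt23 and keratin pairs were picked out after their values were seen.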

Additional observations from a re-analysis of the deposited data

How the results depend on the processing

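The difference in the class share kept its sign under all alternatives run. It was -6.58 to -16.6 percentage points with 1 replicate left out and -9.87 to -18.4 under the others. The batch tag was not used as the unit of the share. Calls within the class were 0 by edgeR under every alternative except 1 without a filter on low counts and 0 to 528 with 1 replicate left out, and were 21 by DESeq2. Calls of the interaction were 34 by DESeq2, 28 without the filter and 0 to 7 with 1 replicate left out. The share at the Klk10 list turned to -9.01 points with plate C114 left out, 7.58 to 16.1 points with 1 replicate left out. The interaction of Gm10282 turned to -2.60 against interfollicular differentiated cells. Of 191 refits of named genes within the class 27 passed the threshold, and of 88 interaction refits 9. With the 2 MBULK samples left out, chosen after seeing the data, the shares differed by -11.7 and 16.9 points and 0 genes were called in either test, but Klhl22 moved from 11.27 to 1.53 and Gm10282 from 5.89 to 3.28 in the interaction, and Gfer, Mt4 and Gm10282 left the test within the class. Plates as units with the batch tag or the alternative tag as a replicate block also gave 0 calls. The groups share no replicate letter, so the tags Replicate1 and Replicate2, present in both groups, were the sole pairing at hand. The batch tag and the alternative tag swap C128 and C129. With 20 class cells in 38w and 42 in 38wUW, single cells set many values.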
